A study of Homo sapiens with 36 samples.

Results

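The members described here are the CTCF peaks of the major histocompatibility complex (MHC) in HEK293T cells, an established line grown from human embryonic kidney. They are all peaks overlapping chr6:28500000-33400000 of the hg19 build, a window of 4.9 Mb, plus all peaks on the 7 alternative MHC haplotype contigs of that build (apd_hap1, cox_hap2, dbb_hap3, mann_hap4, mcf_hap5, qbl_hap6 and ssto_hap7). They numbered 3230 of the 183414 peaks in 6 deposited lists, 604 in the window on chromosome 6 and 2626 on the contigs. Membership was decided by position alone.

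CTCF was mapped by chromatin immunoprecipitation and sequencing in cells transfected with a small interfering RNA named siCHD3, siCHD4, siCHD5, siMBD2 or siMBD3, or with the control siNC. The targets CHD3, CHD4 and CHD5 are chromatin-remodelling helicases, and MBD2 and MBD3 carry methyl-CpG-binding domains. They belong to, or are counted with, the NuRD complex, which moves nucleosomes and removes acetyl groups from histones. The study held 36 samples in 12 groups, with 3 immunoprecipitates and 3 inputs per condition. The authors called peaks on the 3 replicates of a condition together, so each condition is 1 list, there is no spread between replicates, and no test between conditions was made. How far each target was depleted was not analysed here.

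The MHC is the gene-dense stretch of the short arm of chromosome 6 that holds the classical antigen-presentation genes. Class I genes lie mainly towards the telomere, class II genes towards the centromere, and the class III segment, with complement, heat-shock and cytokine genes, lies between them. It is among the most variable regions of the human genome, which is why the build carries whole alternative haplotypes of it beside the chromosome 6 sequence. CTCF is a DNA-binding protein with many zinc fingers, found at insulator elements and at the bases of chromatin loops. Positions run from the telomeric side to the centromeric side as they increase. Peaks are named by position, because no annotation of hg19 was used here.

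The lists differed in depth. The lowest local background in a list, taken as its genome-wide fragment coverage and called depth, was 0.445 fragments per bp in siCHD3, 1.06 in siCHD4 and 1.95 in siCHD5, and 0.64 in siMBD2 and 0.374 in siMBD3, against 2.96 in siNC. Chromosomes 1 to 22 and X held 25358 to 34319 peaks in the knockdown lists, against 36270 in siNC. Intervals for shares are exact 95% Clopper-Pearson intervals and cover counting error only. Fold enrichment at a summit is the authors' own value, and it is used to rank peaks within a list and not to compare levels between lists.

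The MHC window held more CTCF peaks in siCHD3, siCHD4 and siMBD3 than in siNC, although each of these lists was shorter than siNC as a whole. The window held 153 peaks in siCHD3, 101 in siCHD4 and 86 in siCHD5, and 76 in siMBD2 and 102 in siMBD3, against 86 in siNC. Relative to siNC these numbers were 1.78-fold in siCHD3, 1.17-fold in siCHD4 and 1.0-fold in siCHD5, and 0.884-fold in siMBD2 and 1.19-fold in siMBD3. The matching ratios over chromosomes 1 to 22 and X were 0.946, 0.699, 0.867, 0.719 and 0.713, so in each of the 5 knockdown lists the window kept a larger count relative to siNC than the list as a whole. The direction against siNC itself depended on how peaks were chosen. Among peaks with a deposited −log10 q of at least 5, the ratio was 1.46 in siCHD3, 0.925 in siCHD4 and 1.07 in siCHD5, and 0.8 in siMBD2 and 0.95 in siMBD3. At a −log10 q of at least 10 it was 1.38 in siCHD3, 0.7 in siCHD4 and 1.18 in siCHD5, and 0.633 in siMBD2 and 0.733 in siMBD3. When each list was instead shortened to its 25358 peaks of lowest deposited p on chromosomes 1 to 22 and X, the ratio was 2.61 in siCHD3, 1.98 in siCHD4 and 1.39 in siCHD5, and 1.43 in siMBD2 and 2.0 in siMBD3. Only in siCHD3 was the window count above that of siNC in the full lists and under all 3 of these choices.

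The window was also denser in peaks than the rest of its chromosome in every list, but so was the 1 Mb on either side. It held 31.2 peaks per Mb in siCHD3, 20.6 in siCHD4 and 17.6 in siCHD5, and 15.5 in siMBD2 and 20.8 in siMBD3, against 17.6 in siNC. The rest of chromosome 6 held 11.0, 8.15, 10.2, 8.53 and 8.7 peaks per Mb in the same knockdown lists, against 11.8 in siNC. The 1 Mb below the window was denser than the window itself in siNC, and the 1 Mb above it was denser in siCHD5 and siMBD2. In all other cases the flank was less dense than the window. A density above that of the rest of the chromosome was therefore not confined to the window. The haplotype contigs held 753 peaks in siCHD3, 427 in siCHD4 and 337 in siCHD5, and 364 in siMBD2 and 401 in siMBD3, against 344 in siNC. The contigs and the window gave siCHD3 the largest count by a wide margin, and the contig count in siCHD3 was 2.19-fold that in siNC.

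**Figure D1:**
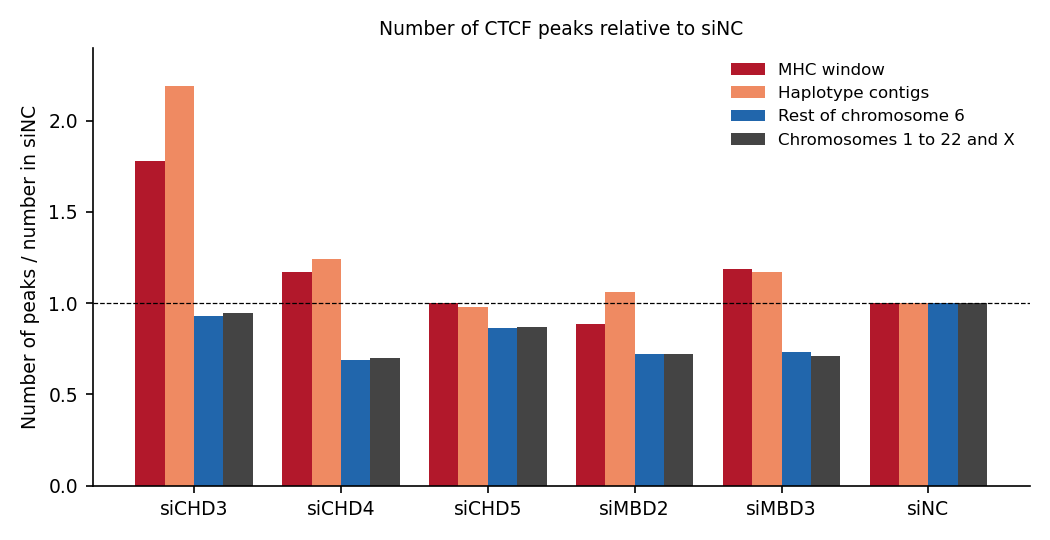
Number of CTCF peaks in each list divided by the number in siNC, for the MHC window, the 7 haplotype contigs, the rest of chromosome 6 and chromosomes 1 to 22 and X; the dashed line marks siNC. In each knockdown list the window and contig bars stand above the chromosome 6 and genome bars, most of all in siCHD3 (1.78 and 2.19 against 0.928 and 0.946).

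Overlapping or touching window peaks of the 6 lists merged into 182 regions. Of these, 39 were called in all 6 lists, or 21.4% (interval 15.7 to 28.1), against 21.7% of the 54382 merged regions of chromosomes 1 to 22 and X. Regions were spread unevenly along the window. In 10 successive stretches of 490 kb, from the telomeric side, there were 14, 3, 11, 15, 27, 25, 32, 12, 14 and 29 regions, and 2, 0, 3, 6, 3, 7, 5, 6, 4 and 3 of them were called in all 6 lists. The stretch with 32 regions, chr6:31440000-31930000, held most regions and also most of those called in 1 list, 15 of its regions.

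The longest stretch with no region in any list was chr6:29044935-29382461, 338 kb towards the telomeric end. Of the 49 pieces of 100 kb, 6 held no region. The densest piece, chr6:30500000-30600000, held 11 regions and none of them was called in all 6 lists, while the next densest, chr6:32900000-33000000, held 10 regions with 1 called in all 6. Just outside the rule, a siMBD2 peak at chr6:28499586-28499829 with fold 6.85 missed the lower bound, and a siCHD5 peak at chr6:33459927-33460187 with fold 5.42 was the nearest beyond the upper bound. Just inside, chr6:28510218-28510755 was called in all 6 lists with folds of 3.1 to 8.52, and chr6:33386216-33386490 in 4 knockdown lists (siCHD3, siCHD4, siCHD5 and siMBD2) with folds of 4.08 to 5.59, and not in siNC.

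**Figure D2:**
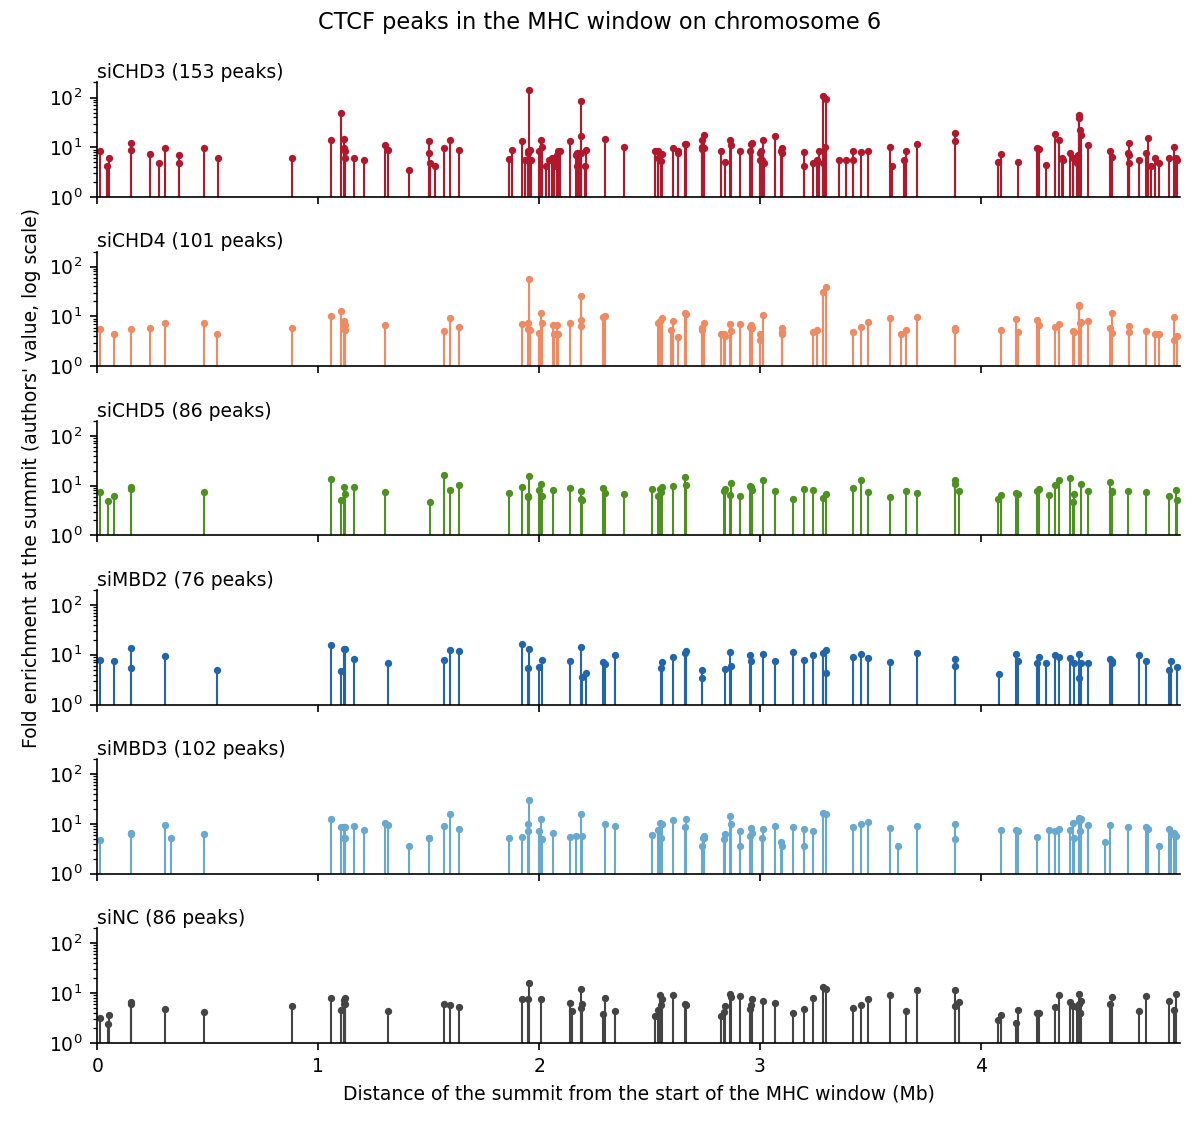
CTCF peaks along the MHC window in the 6 lists, knockdowns above siNC, by distance of the summit from the window start in Mb (horizontal) and the authors' fold enrichment at the summit on a log scale (vertical). The empty stretch between 0.545 and 0.883 Mb is shared by all lists, and the tallest peak within siCHD3, siCHD4, siMBD3 and siNC is the same region, chr6:30453661-30454565.

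A group of 4 wide regions headed the window. Ranked by median within-list percentile of fold among regions called in all 6 lists, they were chr6:30453661-30454565, chr6:31784615-31785315, chr6:31796335-31798088 and chr6:30691124-30693176. Merged over the lists they span 905, 701, 1754 and 2053 bp. The siNC peaks in the first, second and last were 794, 450 and 1429 bp wide. By fold they had percentiles of 99.0 or higher in siCHD3, siCHD4, siMBD3 and siNC, and 3 of them had percentiles of 36.4 to 69.1 in siCHD5. In siNC, chr6:31784615-31785315 and chr6:30691124-30693176 had 52 and 47 fragments at the summit, both at the lowest background, 2.96. The median siNC peak of chromosomes 1 to 22 and X had 59 fragments, so these 2 ranks hold for fold and not for pileup. The pair at chr6:31784615-31785315 and chr6:31796335-31798088 lies close together in the middle of the window.

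The region chr6:30453661-30454565 had fold 139.6 in siCHD3, 57.3 in siCHD4 and 15.6 in siCHD5, and 13.2 in siMBD2 and 30.3 in siMBD3, against 15.7 in siNC. These values lay at or above the 99th percentile of each list, from 99.0 in siCHD5 to 99.99 in siCHD3, against 99.8 in siNC. It was the peak of highest fold in the window in siCHD3, siCHD4 and siMBD3, and also in siNC. The summit pileup was 236 fragments in siCHD3, 154 in siCHD4 and 48 in siCHD5, and 64 in siMBD2 and 60 in siMBD3, against 145 in siNC. In siCHD3 and siCHD4 the pileup thus exceeded that of siNC, the list with the highest depth.

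The region chr6:31784615-31785315 had fold 108.0 in siCHD3, 31.5 in siCHD4 and 5.75 in siCHD5, and 10.6 in siMBD2 and 16.5 in siMBD3, against 13.4 in siNC. Its percentile of fold was 99.9 in siCHD3, 99.4 in siCHD4 and 36.4 in siCHD5, and 95.2 in siMBD2 and 99.2 in siMBD3, against 99.6 in siNC. In siCHD5 alone it ranked below the median peak of its list. The pileup there was 16 fragments in siCHD5, against 52 in siNC.

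The regions chr6:31796335-31798088 and chr6:30691124-30693176 showed the same contrast between siCHD5 and the other lists. The first had fold 94.8 in siCHD3, 39.7 in siCHD4 and 6.8 in siCHD5, and 12.3 in siMBD2 and 15.9 in siMBD3, against 12.1 in siNC, and its percentile was 54.7 in siCHD5, against 99.2 in siNC. The second had fold 85.8 in siCHD3, 25.2 in siCHD4 and 7.79 in siCHD5, and 14.6 in siMBD2 and 15.5 in siMBD3, against 12.1 in siNC, and its percentile was 69.1 in siCHD5, against 99.2 in siNC. In the other 4 knockdown lists both had a percentile of 98.3 or higher.

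A pair of adjacent regions, wide when merged over the lists, was absent from the siCHD5 list on chromosome 6. The siNC peaks in them were 198 and 807 bp wide. They were chr6:32943816-32944983 and chr6:32945212-32946153, towards the centromeric end, which were called in the other 5 lists. The first had fold 45.1 in siCHD3, 17.3 in siCHD4, 10.3 in siMBD2 and 13.3 in siMBD3, against 9.59 in siNC. The second had fold 38.1 in siCHD3, 16.0 in siCHD4, 3.34 in siMBD2 and 11.6 in siMBD3, against 6.06 in siNC. Both ranked high in siCHD3, siCHD4 and siMBD3, with percentiles of 96.4 to 99.0, while the second was near the bottom of siMBD2, with a percentile of 0.977. A call in all lists but siCHD5 was made for 4 window regions, or 2.2% (interval 0.602 to 5.53), against 0.807% of regions over chromosomes 1 to 22 and X.

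Wide peaks were a larger share of the window than of the genome in every list, though by little in siCHD5 and siNC. Peaks over 500 bp made up 19.6% of window peaks in siCHD3 (30 of 153), 9.9% in siCHD4 (10 of 101) and 2.33% in siCHD5 (2 of 86), and 3.95% in siMBD2 (3 of 76) and 4.9% in siMBD3 (5 of 102), against 4.65% in siNC (4 of 86). Over chromosomes 1 to 22 and X the shares were 11.1%, 6.87%, 2.16%, 2.14% and 2.59% in the same knockdown lists, against 3.64% in siNC. Except in siCHD3 and siCHD4, the window shares rest on 5 peaks or fewer.

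The other regions of the 10 highest shared ranks were narrow. The region chr6:29557189-29557615 had fold 13.8 in siCHD3, 10.2 in siCHD4 and 13.9 in siCHD5, and 15.9 in siMBD2 and 12.4 in siMBD3, against 7.79 in siNC. Its percentile was 93.9, 94.8, 98.0, 99.7 and 97.4 in the knockdown lists, against 89.1 in siNC, so it was in the top 10% of every knockdown list and just below it in siNC. The remaining 5, between chr6:30098807 and chr6:31514733, spanned 268 to 431 bp, with percentiles of 47.5 to 99.1 over the 6 lists.

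Peaks in the window had fewer fragments and a far lower local background than peaks elsewhere on chromosome 6. The median summit pileup of window peaks was 12 fragments in siCHD3, 16 in siCHD4 and 26.5 in siCHD5, and 14.5 in siMBD2 and 11 in siMBD3, against 35 in siNC. On the rest of chromosome 6 it was 17, 30, 53, 24 and 17.5 fragments in the same knockdown lists, against 68 in siNC. The window median was therefore below that of the rest of the chromosome in all 6 lists.

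The local background differed more. The median background of window peaks was 0.445 fragments per bp in siCHD3, 1.21 in siCHD4 and 1.95 in siCHD5, and 0.752 in siMBD2 and 0.411 in siMBD3, against 4.26 in siNC. On the rest of chromosome 6 it was 1.46, 4.98, 7.11, 2.74 and 1.73 fragments per bp in the knockdown lists, against 11.7 in siNC. In siCHD3 and siCHD5 the window median was the lowest value the list could take.

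The share of window peaks at the lowest background of their list, within 1%, was 60.8% in siCHD3, 41.6% in siCHD4 and 52.3% in siCHD5, and 40.8% in siMBD2 and 45.1% in siMBD3, against 26.7% in siNC. On the rest of chromosome 6 that share was 8.06%, 3.84%, 1.59%, 2.47% and 4.64% in the knockdown lists, against 2.04% in siNC. In all 6 lists the median background of the 1 Mb flanks was nearer to that of the rest of chromosome 6 than to that of the window. In the 1 Mb below the window the median background was 0.994 in siCHD3, against 11.2 in siNC, and in the 1 Mb above it 0.994 in siCHD3, against 12.1 in siNC.

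The fold of window peaks was higher than that of peaks on the rest of chromosome 6 in each list. The median fold in the window was 8.31 in siCHD3, 6.06 in siCHD4 and 7.79 in siCHD5, and 7.69 in siMBD2 and 7.5 in siMBD3, against 5.95 in siNC. The rest of chromosome 6 had a median of 6.36, 4.97, 6.65, 6.6 and 6.58 in the knockdown lists, against 5.15 in siNC. Window peaks in the top 10% of their list by fold made up 24.8% in siCHD3, 24.8% in siCHD4 and 18.6% in siCHD5, and 32.9% in siMBD2 and 22.5% in siMBD3, against 20.9% in siNC.

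**Figure D3:**
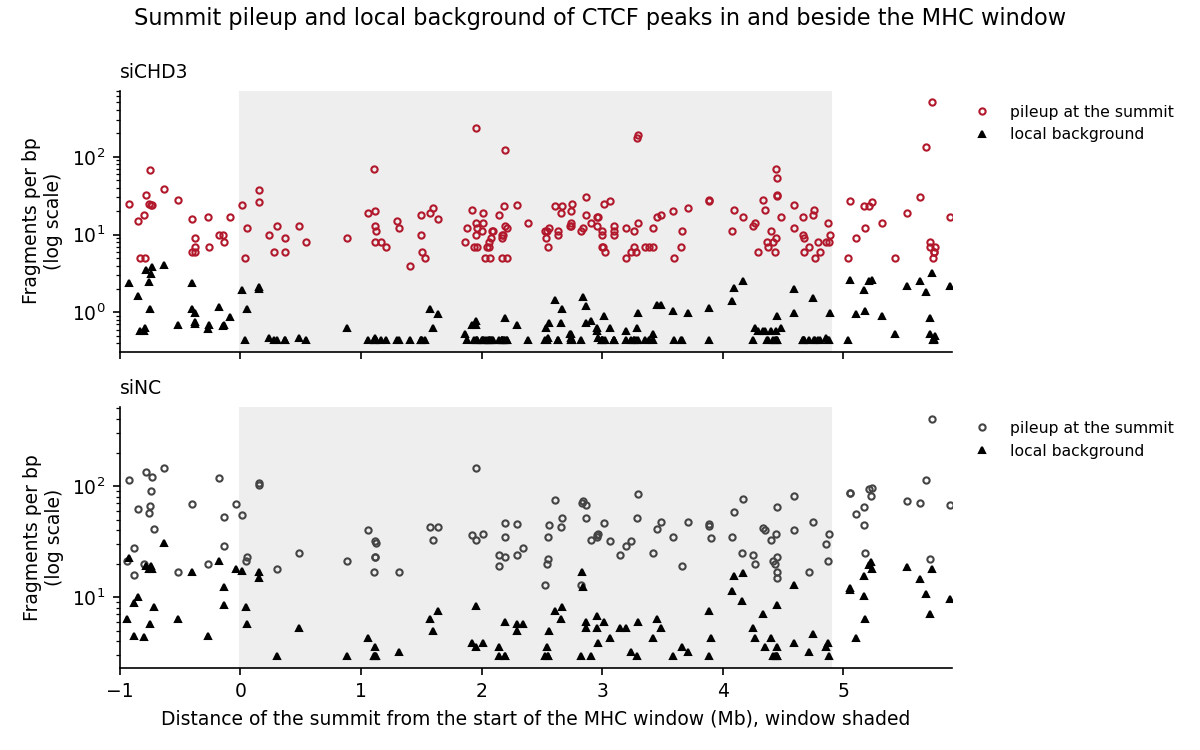
Summit pileup (open circles) and local background (triangles), in fragments per bp on a log scale, of CTCF peaks in the MHC window (shaded) and 1 Mb on either side, in siCHD3 (above) and siNC (below). Inside the window most siCHD3 triangles lie on the lowest value, 0.445, and siNC triangles reach down to 2.96, while in the flanks few or none do.

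Fewer siNC peaks of the window were missing from siCHD3, siCHD4 and siMBD3 than the share over the genome. A siNC peak is called missing from a knockdown list when no peak of that list overlaps it. In siCHD3, 11 of 86 siNC peaks were missing, or 12.8% (interval 6.56 to 21.7), against 35.4% of siNC peaks on chromosomes 1 to 22 and X. In siCHD4, 21 were missing, or 24.4% (15.8 to 34.9), against 41.5%, and in siMBD3, 16 were missing, or 18.6% (11.0 to 28.4), against 38.5%. These 3 genome shares lie above the intervals of the window. The sizes moved with the peak threshold: among siNC peaks with a −log10 q of at least 10, the missing share was 6.67% in siCHD3, 15.0% in siCHD4 and 5.0% in siMBD3, against 29.0%, 34.4% and 28.3% over the genome.

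In siCHD5 and siMBD2 the genome share lay inside the interval. In siCHD5, 19 siNC peaks of the window were missing, or 22.1% (13.9 to 32.3), against 21.5% over the genome. In siMBD2, 26 were missing, or 30.2% (20.8 to 41.1), against 34.9%. Missing peaks were weak ones within siNC: their median fold was 4.14 to 4.74 in the 5 comparisons, against 6.04 to 6.27 for siNC window peaks that had a partner.

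Thinning each siNC summit to the depth of the knockdown list gave an expected 42.8% missing in siCHD3, 16.9% in siCHD4 and 3.56% in siCHD5, and 32.9% in siMBD2 and 53.2% in siMBD3. This value lay above the interval of the observed share in siCHD3 and siMBD3, inside it in siCHD4 and siMBD2, and below it in siCHD5. The calculation covers the 86 siNC peaks of the window only and keeps the enrichment of siNC. Whether these departures are particular to the window was not tested.

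More knockdown peaks of the window had no siNC partner than over the genome, in all 5 lists. A knockdown peak with no overlapping siNC peak is called added. In siCHD3, 80 of 153 window peaks were added, or 52.3% (44.1 to 60.4), against 32.6% over chromosomes 1 to 22 and X. In siCHD4, 38 of 101 were added, or 37.6% (28.2 to 47.8), against 16.8%, and in siMBD3, 32 of 102 were added, or 31.4% (22.5 to 41.3), against 13.4%. In siCHD5, 18 of 86 were added, or 20.9% (12.9 to 31.0), against 9.41%, and in siMBD2, 15 of 76, or 19.7% (11.5 to 30.5), against 9.3%. All 5 genome shares lay below the window's interval. Among peaks with a −log10 q of at least 10, the added share was 32.5% in siCHD3, 7.14% in siCHD4 and 16.9% in siCHD5, and 2.63% in siMBD2 and 11.4% in siMBD3, against 8.92%, 2.22%, 3.54%, 1.16% and 1.39% over the genome. At that threshold the genome share lay inside the window's interval in siCHD4 (1.5 to 19.5) and siMBD2 (0.0666 to 13.8).

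The added peaks sat mostly where the background was lowest: 69 of 80 in siCHD3, 31 of 38 in siCHD4 and 14 of 18 in siCHD5, and 9 of 15 in siMBD2 and 24 of 32 in siMBD3. Among window peaks at the lowest background of their list, 74.2% were added in siCHD3, 73.8% in siCHD4 and 31.1% in siCHD5, and 29.0% in siMBD2 and 52.2% in siMBD3. Over chromosomes 1 to 22 and X the shares at the lowest background were 84.3%, 66.4%, 31.9%, 60.1% and 72.2% in the same lists, so among such peaks the window share was higher than the genome share in siCHD4 alone. Among window peaks above it, the added share was 18.3% in siCHD3, 11.9% in siCHD4 and 9.76% in siCHD5, and 13.3% in siMBD2 and 14.3% in siMBD3. Over chromosomes 1 to 22 and X, the shares above the lowest background were 24.4%, 13.0%, 8.3%, 7.06% and 9.64%. Away from the lowest background, the window share was thus below the genome share in siCHD3 and siCHD4 and above it in siCHD5, siMBD2 and siMBD3. The part of the low background in the added peaks was not tested beyond this split.

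**Figure D4:**
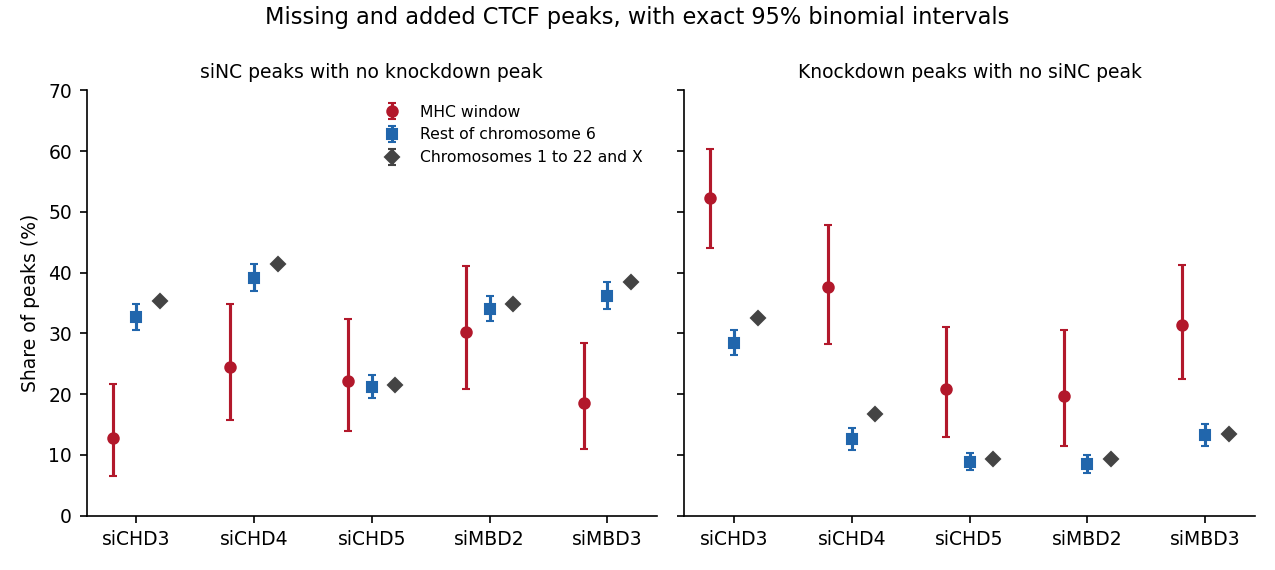
Share of siNC peaks with no knockdown peak (left) and of knockdown peaks with no siNC peak (right), in percent, for the MHC window, the rest of chromosome 6 and chromosomes 1 to 22 and X, with exact 95% binomial intervals. On the right every window point lies above its genome point, and on the left the window lies well below it in siCHD3, siCHD4 and siMBD3 and close to it in siCHD5 and siMBD2.

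Regions called in knockdowns and not in siNC took up much of the window. Of the 182 window regions, 98 were called in at least 1 knockdown and not in siNC, or 53.8% (46.3 to 61.2), against 33.9% of regions over chromosomes 1 to 22 and X. Those called in 2 or more knockdowns and not in siNC were 51, or 28.0% (21.6 to 35.1), against 7.59%. By contrast, 1 window region was called in siNC only, or 0.549% (0.0139 to 3.02), against 5.3%. That region, chr6:30646811-30647030, had fold 4.39 in siNC, a percentile of 29.8 in its list.

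Among regions called in 1 list, siCHD3 had the most, in the window as over the genome. It was the only list at 35 window regions, or 19.2% (13.8 to 25.7), against 14.7% over the genome, which lies inside the interval. Over the genome, 8009 of 54382 regions were called in siCHD3 only, and the next most, 2882, in siNC only. The combination of siCHD3 and siCHD4 alone was found at 15 regions, or 8.24% (4.69 to 13.2), against 3.09%, and that of siCHD3 and siMBD3 alone at 9 regions, or 4.95% (2.29 to 9.18), against 0.533%. No window region was called in siCHD5 only (0 of 182, upper bound of the interval 2.01%), against 2.91%. The other lists were alone at 6 regions in siCHD4 (3.3%, against 2.63% over the genome), 1 in siMBD2 (0.549%, against 2.38%) and 5 in siMBD3 (2.75%, against 3.69%).

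Window regions absent from a single knockdown list were few, and the genome share lay outside the window's interval only for siCHD3. Besides the 4 regions called in all lists but siCHD5, 8 were called in all but siCHD4, or 4.4% (1.92 to 8.48), against 4.64% over the genome. In all but siMBD2 there were 7, or 3.85% (1.56 to 7.76), against 1.69%. A single region each was called in all but siCHD3 and in all but siMBD3, or 0.549% (0.0139 to 3.02), against 3.26% and 2.93%. The region absent from siCHD3 was chr6:32659767-32660189, with fold 8.74 in siCHD4 and 7.11 in siCHD5, and 10.3 in siMBD2 and 7.43 in siMBD3, against 2.54 in siNC. The strongest absent from siMBD2 was chr6:30509220-30509581, with fold 13.8 in siCHD3, 11.6 in siCHD4, 10.8 in siCHD5 and 12.4 in siMBD3, against 7.74 in siNC, and siMBD2 had a peak on 6 of its 7 matched contigs.

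On chromosome 6, a set of 3 window regions was called after each of the 5 knockdowns but not after siNC, or 1.65% (0.341 to 4.74), against 0.0846% over the genome, where there were 46. They were chr6:32982530-32982891, chr6:30512274-30513043 and chr6:30500260-30500638. The first had fold 11.1 in siCHD3, 8.25 in siCHD4 and 7.79 in siCHD5, and 6.69 in siMBD2 and 9.46 in siMBD3. The second had fold 10.4 in siCHD3, 7.25 in siCHD4 and 6.09 in siCHD5, and 7.93 in siMBD2 and 4.96 in siMBD3. The third had fold 8.31 in siCHD3, 4.76 in siCHD4 and 8.12 in siCHD5, and 5.75 in siMBD2 and 7.28 in siMBD3. Summit pileups at these regions were small, 6 to 23 fragments, and the last 2 both lie in the densest piece of the window. All 3 had siNC peaks on haplotype contigs matched to them, on 4 of 6, 5 of 7 and 3 of 7. Contig copies were counted neither in the window share nor in the genome share.

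Added peaks were ranked by fold within each list. The highest in siCHD3 were chr6:31248067-31249084 with fold 18.0, chr6:30688127-30688338 with fold 16.6 and chr6:33257408-33257712 with fold 15.2, with percentiles of 96.0, 95.4 and 94.8 in that list. None had a siNC peak within 1 kb. The first was also called in siCHD4 with fold 7.28 and in siMBD3, the second in siCHD4, and the third in siMBD3 with fold 8.01. In the other lists the added peak of highest fold was chr6:33371586-33371900 in siCHD4 (fold 9.71, percentile 94.1), chr6:29664350-29664633 in siCHD5 (9.48, 85.1), chr6:29664366-29664626 in siMBD2 (8.25, 78.3) and chr6:29802736-29802944 in siMBD3 (10.2, 92.0). The siCHD5 and siMBD2 peaks are the same region, and siNC had a peak on 1 of its 2 matched contigs, with fold 6.31. At the other added regions named here siNC had no contig peak, and chr6:31248067-31249084 and chr6:29802736-29802944 had no matched contig. These folds do not rank the lists: the leading siCHD3 peak had 25 fragments over a background of 0.445, and the leading siCHD5 peak 27 over 1.95.

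Among siNC peaks with no knockdown peak within 1 kb, 2 shared the highest fold, 9.59 in siNC with a percentile of 96.6. The first, chr6:33382391-33382670, was missing from siCHD4 and siMBD2 and was called in siCHD3, siCHD5 and siMBD3. Its 1 matched contig had no peak in siCHD4 or siMBD2 either. The second, chr6:32944053-32944250, was missing from siCHD5 and lies in the first of the adjacent regions that siCHD5 lacked on chromosome 6. The strongest missing from siCHD3, chr6:31047671-31047867, had fold 9.09 in siNC and was missing from siMBD2 as well. On its 6 matched contigs, siCHD3 had a peak on 4, with folds of 7.61 to 10.4, and siMBD2 on 1. The strongest missing from siMBD3, chr6:33093919-33094235 with fold 8.35 in siNC, was missing from siCHD3 too. On its 1 matched contig, siMBD3 had a peak with fold 5.87 and siCHD3 had none.

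The haplotype contigs carry alternative copies of the window, and a site can be called on some copies and not on others. Contig regions were matched to window regions by the spacing of successive regions, a procedure settled after the data were seen. How reads that match several copies were placed is not given in the sources used here, so copies are not independent measurements. The 7 contigs held 859 merged regions, from 70 on apd_hap1 to 149 on cox_hap2, and 628 of them, or 73.1%, were matched. Of the 182 window regions, 157 had a matched region on at least 1 contig and 22 had one on all 7.

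Calls on the chromosome and on the contigs often differed in the same list. Where a list called the window copy, it also called 93.8% of the matched contig regions in siCHD3, 78.1% in siCHD4 and 77.9% in siCHD5, and 78.3% in siMBD2 and 78.3% in siMBD3, against 77.6% in siNC. Where it did not call the window copy, it still called 58.1% of them in siCHD3 (36 of 62), 59 of 268 in siCHD4 and 13.3% in siCHD5, and 20.0% in siMBD2 and 13.7% in siMBD3, against 12.2% in siNC. A contig region exists only where at least 1 of the 6 lists called a peak, and siCHD3 gave 753 of the 2626 contig peaks. The shares therefore depend in part on which lists defined the regions, and they do not rank the lists. The ratio of the highest to the lowest fold over the called copies of a site had a median of 1.37 in siCHD3, 1.38 in siCHD4 and 1.46 in siCHD5, and 1.33 in siMBD2 and 1.38 in siMBD3, against 1.56 in siNC.

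Adding up the copies changed where the window stood against the rest of the chromosome. For the 39 regions called in all 6 lists, the median window pileup was 21 fragments in siCHD3, 25 in siCHD4 and 35 in siCHD5, and 19 in siMBD2 and 16 in siMBD3, against 46 in siNC. Added up over the window and the matched contig regions, it was 58 in siCHD3, 75 in siCHD4 and 115 in siCHD5, and 56 in siMBD2 and 58 in siMBD3, against 159 in siNC. The 712 regions called in all 6 lists on the rest of chromosome 6 had medians of 26, 41, 80, 32 and 24 fragments in the knockdown lists, against 117 in siNC. The window copy alone was thus lower than the rest of the chromosome in every list, and the sum over copies was higher in every list. Summing copies can only raise a value, while other regions were counted once, so the sum does not show how reads were placed. With 0 or 1 matched contig, 11 regions had medians of 24, 26, 50, 19 and 17 in the knockdown lists, against 67 in siNC. These window medians were also below the rest of chromosome 6 in every list. With 5 or more matched contigs, 10 regions had medians of 21, 24.5, 28.5, 19.5 and 13, against 41.5.

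The leading wide region, chr6:30453661-30454565, was called on all 4 of its matched contigs in all 6 lists. Its fold over the window and these contigs ran from 119.5 to 139.6 in siCHD3 and from 8.14 to 15.6 in siCHD5, against 12.8 to 16.5 in siNC. For chr6:30691124-30693176, which was called on all 7 contigs in all 6 lists, it ran from 81.0 to 92.1 in siCHD3, from 21.4 to 30.1 in siCHD4, from 6.43 to 10.2 in siCHD5, from 8.9 to 18.3 in siMBD2 and from 11.4 to 18.4 in siMBD3, against 9.77 to 12.6 in siNC. The pair absent from siCHD5 on the chromosome differed on the contigs: chr6:32943816-32944983 was called in siCHD5 on 1 of its 5 matched contigs, with fold 4.79, and in siNC also on 1 of 5. The second, chr6:32945212-32946153, was called in siCHD5 on none of 5, against all 5 in siNC.

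Several calls that looked list-specific on chromosome 6 were found on a contig. The 3 regions called in all 5 knockdowns and not in siNC had siNC peaks on 4 of 6, 5 of 7 and 3 of 7 matched contigs. The siNC folds there were 4.28 to 5.49, 5.24 to 7.57 and 3.91 to 4.83. Of the 11 siNC regions with no siCHD3 peak on chromosome 6, 5 had a siCHD3 peak on a matched contig, and of the 17 with no siCHD5 peak, 8 had a siCHD5 peak there.

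When a site counted as called on any copy, 70 of the 182 sites were called in all 6 lists, or 38.5%, against 39 on chromosome 6 alone. Of 104 siNC sites, 6.73% (interval 2.75 to 13.4) were then missing in siCHD3, 12.5% (6.83 to 20.4) in siCHD4 and 10.6% (5.4 to 18.1) in siCHD5, and 15.4% (9.06 to 23.8) in siMBD2 and 15.4% (9.06 to 23.8) in siMBD3. The added share became 41.2% (33.6 to 49.1) in siCHD3, 26.6% (19.1 to 35.3) in siCHD4 and 7.0% (2.86 to 13.9) in siCHD5, and 16.2% (9.72 to 24.7) in siMBD2 and 25.4% (17.9 to 34.3) in siMBD3. On that count, 1 site was called in all 5 knockdowns and not in siNC, and 24 sites were called in siCHD3 only. The same calculation was not made for other chromosomes.

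**Figure D5:**
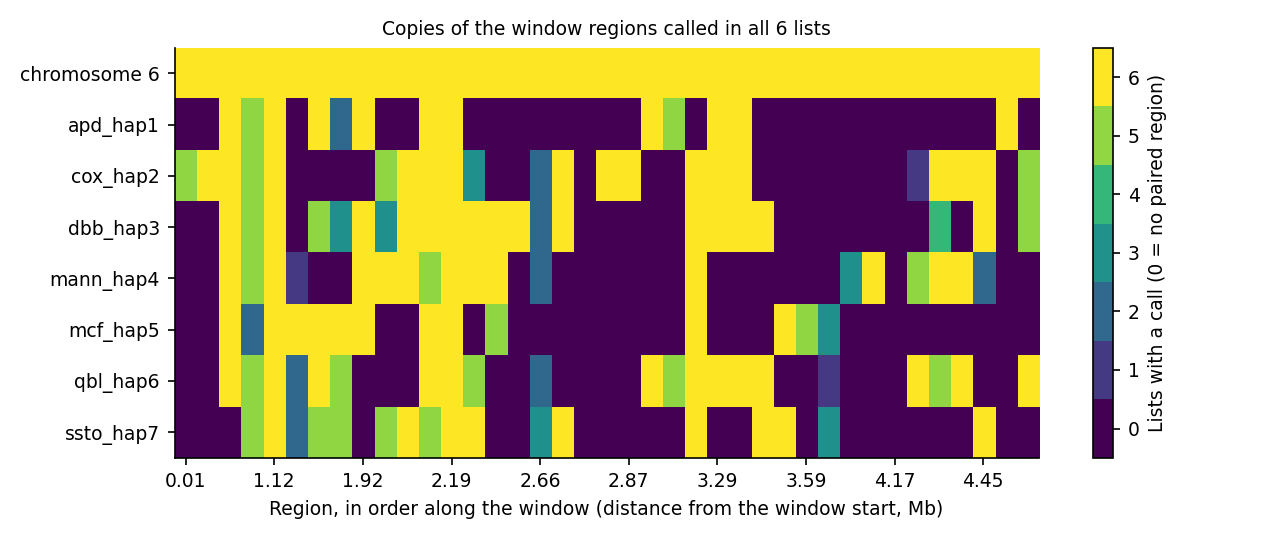
Number of lists (0 to 6, by colour) that called each of the 39 window regions found in all 6 lists, on chromosome 6 (top row) and on each of the 7 haplotype contigs; columns follow position along the window, and 0 means that no contig region was matched. Where a match exists the contig copy was usually called in 5 or 6 lists, and 2 of the 39 regions have no match on any contig.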

How the data were processed

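HEK293T cells transfected with siCHD3, siCHD4, siCHD5, siMBD2, siMBD3 or siNC were profiled for CTCF, with 18 immunoprecipitates and 18 inputs, per the labels. PCR-amplified libraries were read as paired ends, per the labels' protocols. The submitters' processing notes name hg19, MACS2 2.1.2, Bowtie2 2.3.4, SAMtools 1.9, deepTools 3.5.0, bedtools 2.25.0 and FastQC 0.11.7. Tool settings and the handling of duplicates or of reads matching several places are not given in the labels or file headers.

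The 6 deposited lists, in the MACS2 narrow-peak layout, hold the authors' fold enrichment at the summit (a linear ratio over local background), the deposited −log10 p and −log10 q, the summit offset and a deposited score for display, which was not used. A peak with several summit lines entered once, at its highest summit. Pileup and background at a summit were derived by reading the authors' fold as (pileup + 1) / (background + 1) and their p as the upper tail of a Poisson distribution. Whole-number pileups fitted p within 0.01% for at least 99.99% of peaks in each list. Overlap meant 1 bp or more, and backgrounds were computed over the peaks of chromosomes 1 to 22 and X. The expected missing share thinned each siNC pileup binomially to the depth of the other list.

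Window and contig regions were paired in order, keeping runs of at least 3 pairs whose offset changed by at most 100 bp per step, within 500 kb of the window start. Tolerances and run length were settled after seeing the data. Overlaps, pileups and pairing were tested on simulated data. Computation used Python 3.11.15, numpy 2.4.6, pandas 2.3.3, scipy 1.17.1 and matplotlib 3.10.9.

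The members, lists and alternatives were chosen with earlier results of these data known. The naming rule took the 10 regions shared by the 6 lists with the highest median percentile of fold, the 5 strongest missing and added peaks per knockdown with no partner within 1 kb, every region called in all 5 knockdowns and not in siNC, the 5 strongest called in siNC only, and the 3 strongest called in all lists but 1. The leading ones are printed. Planned gene lists were not run, because no hg19 annotation was used here.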

Additional observations from a re-analysis of the deposited data

How the results depend on the processing

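No paired analysis was possible because the authors pooled the 3 replicates of a condition before calling peaks, and for the same reason no replicate could be left out. A reciprocal overlap of 50%, any peak within 1 kb, merging peaks within 500 bp and counting every summit line left each result inside its counting interval or within 1.5 times its main count, but the reciprocal overlap moved the siCHD3 missing share from 12.8% to 20.9%, inside its interval and by over 1.5 times. Requiring a −log10 q of at least 10 in the list counted gave missing shares of 6.67% in siCHD3, 15.0% in siCHD4 and 8.33% in siCHD5, and 18.3% in siMBD2 and 5.0% in siMBD3, against 29.0%, 34.4%, 9.38%, 23.1% and 28.3% over chromosomes 1 to 22 and X, added shares of 32.5% in siCHD3, 7.14% in siCHD4, 2.63% in siMBD2 and 11.4% in siMBD3, against 8.92%, 2.22%, 1.16% and 1.39%, and, in all lists, 13 regions called in all 6. Requiring at least 5 in both lists gave added shares of 25.7% in siCHD4 and 21.1% in siMBD3, against 8.67% and 5.24%. Lists of equal length gave missing shares of 13.7% in siCHD4 and 11.8% in siCHD5, and 17.6% in siMBD2 and 5.88% in siMBD3, against 30.5%, 13.2%, 19.2% and 24.2% over chromosomes 1 to 22 and X. They gave added shares of 65.4% in siCHD3, 56.4% in siCHD4 and 36.6% in siCHD5, and 41.1% in siMBD2 and 52.9% in siMBD3, against 30.5%, 30.5%, 13.2%, 18.9% and 23.9%. Other values came from weights for how likely a siNC summit was to be called at the other list's depth. The missing share was then 8.21% in siCHD3, 20.2% in siCHD4 and 21.0% in siCHD5, and 22.4% in siMBD2 and 8.66% in siMBD3. No genome share with these weights is given here. The next settings were chosen after seeing the data. Sites called on the window or a matched contig gave missing shares of 12.5% in siCHD4, 10.6% in siCHD5 and 15.4% in siMBD2, added shares of 41.2% in siCHD3, 26.6% in siCHD4 and 7.0% in siCHD5, and 70 sites called in all 6 lists. Peaks above the lowest background gave a missing share of 12.7% in siCHD5, against 19.5% over chromosomes 1 to 22 and X. Their added shares were 18.3% in siCHD3, 11.9% in siCHD4, 9.76% in siCHD5 and 14.3% in siMBD3, against 24.4%, 13.0%, 8.3% and 9.64%. The causes of these moves were not tested. The median window pileup was 11 to 26.5 fragments in the knockdown lists, against 35 in siNC, and how depth limits the calls was not tested beyond the thinning of siNC summits.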
